A study of Bos taurus with 30 samples.

Results

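Regions of accessible chromatin that were called in bovine 8-cell embryos, by the same criterion at no earlier stage, and again in morula, inner cell mass (ICM) and embryonic stem cells (ESC) are described here. Many of them had a peak in a single earlier library. They were chosen by measured ATAC-seq peaks. Peaks of the 3 replicates of a stage were merged where they shared a base, and a merged stretch counted as a region of the stage where at least 2 replicates had a peak in it. An 8-cell region was selected if it overlapped no region of the 2-cell or 4-cell stage or of GV oocytes, overlapped regions of morula, of ICM and of ESC, and lacked a peak in at least 1 of the 3 libraries of 8-cell embryos cultured with α-amanitin. This gave 5350 kept regions, 4.44% of the 120364 8-cell regions and 5.51% of the 97173 that overlapped no earlier region. Before the clause on α-amanitin there were 7441, and 2091 of these had a peak in all 3 libraries of the treated 8-cell embryos. With 1 replicate of every stage left out and both others needed, a change of libraries and of requirement at once, it was 3755 without replicate 1, 2024 without replicate 2 and 1236 without replicate 3.

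The study followed open chromatin through bovine preimplantation development with 30 ATAC-seq libraries, 3 for each of 10 groups. In ATAC-seq a transposase inserts sequencing adapters where DNA is accessible, and a peak marks a place with more insertions than its surroundings. Embryos came from abattoir oocytes fertilised in vitro with Holstein semen and were pooled, with at least 500 cells in a library of oocytes or embryos. Control groups were GV oocytes, which are immature oocytes with an intact nucleus, 2-cell embryos at 30 to 32 h after insemination, 4-cell embryos at 2 days, 8-cell embryos at 3 days, morula at 5 days, ICM isolated from blastocysts by immunosurgery at 7 days, and ESC lines. Transcription blocked embryos (TBE) were 2-cell, 4-cell and 8-cell embryos of the same ages cultured with 50 µg/ml α-amanitin, which blocks RNA polymerase II. No other strain or genotype is given for any group. Pools hide differences between embryos, so a region open in fewer cells and a region less open in every cell cannot be told apart. ESC were grown on mouse feeder cells, which were removed by a plating step, and ICM rests on immunosurgery to take off the trophectoderm. Marker genes that would show the purity of either, genes near the regions and their sequences were not analysed here.

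Early embryos live on messages stored in the oocyte until their own genome is switched on, and in cattle the main wave of this genome activation falls at about the 8-cell stage. Chromatin is reorganised at the same time, and many regulatory elements become accessible for the first time. The ICM holds the pluripotent cells that will form the body of the embryo, and ESC are their counterpart in culture, so elements opened at genome activation and found in both span the way from the cleaving embryo to pluripotent cells.

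Of the 5350 kept regions, 308 (5.76%) had a peak in each of the 12 libraries from the 8-cell stage to ESC and in 0 of the other 18. No share over all 8-cell regions stands beside this count, which is a description only. The 4 of these 308 with the largest mean fold enrichment are described singly, and their values were part of their choice. Fold enrichment is the signal of a peak relative to the background around it. The 4 are extremes, with means over the 12 libraries of 8.68 to 10.4, while the stage medians of the 308 were 4.58 to 5.93. Those on chromosomes 7 and 23 were 345 and 343 bp wide, against a median of 742.5 bp for the 308. On chromosome 7 a region of 345 bp from 75925448 to 75925792 (ARS-UCD1.2) had a fold enrichment of 7.48, 7.76 and 7.33 in the 3 8-cell libraries and of 10.98, 12.9 and 10.4 in morula. It had 9.45, 11.5 and 10.1 in ICM and 9.58, 15.2 and 12.0 in ESC, so that every later library lay above every 8-cell library. A region of 979 bp on chromosome 20 from 38238183 to 38239161 had 7.77, 6.72 and 9.92 at the 8-cell stage, 11.03, 11.3 and 10.9 in morula, 6.46, 10.2 and 9.61 in ICM and 11.1, 13.9 and 13.3 in ESC. Its 8-cell and ICM values overlapped, and those of morula and ESC were higher than both.

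On chromosome 23 the region from 25767935 to 25768277, 343 bp long, had 6.85, 5.48 and 10.0 at the 8-cell stage, while morula had 10.6, 7.59 and 9.16. Values in ICM were the lowest of the 4 stages on average, at 5.75, 4.52 and 7.06, and those in ESC the highest, at 10.3, 15.0 and 12.8. The region on chromosome 9 from 31688236 to 31688832, 597 bp long, had means of 8.55 ± 1.39, 9.88 ± 0.747, 7.91 ± 0.595 and 8.39 ± 2.35 in 8-cell embryos, morula, ICM and ESC (SD, n = 3 libraries). Each morula library, at 9.23, 10.7 and 9.72, lay above each ICM library, at 7.34, 8.53 and 7.85. The 8-cell libraries, at 7.45, 8.09 and 10.1, and those of ESC, at 5.80, 10.4 and 8.96, overlapped both. The 4 regions lay between 11.4 kb and 143.9 kb from the nearest region of an earlier stage. The 308 regions as a set were on all 30 placed chromosomes and had median fold enrichments of 4.58, 5.93, 5.21 and 5.31 from the 8-cell stage to ESC, against 4.26, 5.47, 4.58 and 4.65 for all kept regions.

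**Figure D1:**
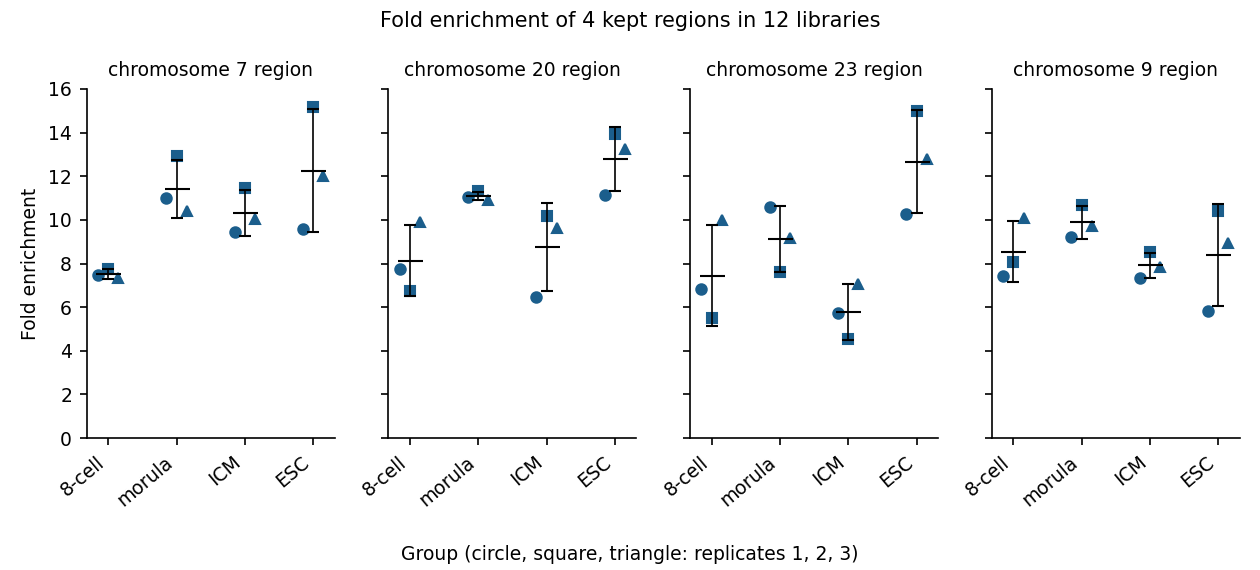
Fold enrichment (vertical axis) of the 4 named kept regions in each library of 8-cell embryos, morula, ICM and ESC, with the mean and SD of the 3 libraries as a bar. The chromosome 23 region was lowest in ICM on average and highest in ESC, and the chromosome 7 region was above its 8-cell values at every later stage.

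The share of kept regions with a peak was counted in each single library. In 8-cell embryos it was 89.4%, 83.4% and 96.6% in the 3 libraries, in morula 91.8%, 99.6% and 98.9%, and in ICM 86.6%, 85.7% and 95.6%. Kept regions were thus missed least in morula. In ESC the shares were 50.7%, 98.3% and 92.7%. Over all 8-cell regions they were 86.6%, 84.6% and 95.7% in 8-cell embryos, where replicate 2 was thus lower for kept regions, 62.8%, 71.1% and 69.4% in morula, 34.7%, 33.9% and 39.1% in ICM and 15.7%, 32.5% and 26.8% in ESC. The low value belonged to ESC replicate 1, whose list held 39333 peaks against 142643 and 99432 in the other ESC lists and whose background level, which grows in proportion to its tags, was 0.175 against 0.656 and 0.404. The part of depth in this low value was not tested. With ESC regions taken from the other replicates alone there were 5029 kept regions. All of these shares follow from the choice of the regions in some degree and are given without a test.

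A peak in all 12 libraries of the 4 stages was found for 1275 kept regions (23.8%), in 11 for 2054 and in 10 for 1325. Over all 8-cell regions the shares were 10.6%, 5.83% and 4.72%. Of the 6991 peaks missing from kept regions, 3119 were missing in ESC, 2636 of them in replicate 1, and 1715 in ICM, 1637 in 8-cell embryos and 520 in morula. In ESC 2391 kept regions had a peak in all 3 libraries, 2799 in 2 and 160 in 1. Those 160 overlapped an ESC region but only 1 replicate's peak reached into the 8-cell region itself. In morula 4838 kept regions had a peak in all 3 libraries, in 8-cell embryos 3713 and in ICM 3685. Over all 8-cell regions 66.9% had a peak in all 3 8-cell libraries, beside 69.4% of kept regions. In morula it was 56.2% beside 90.4%, in ICM 26.4% beside 68.9% and in ESC 14.5% beside 44.7%.

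**Figure D2:**
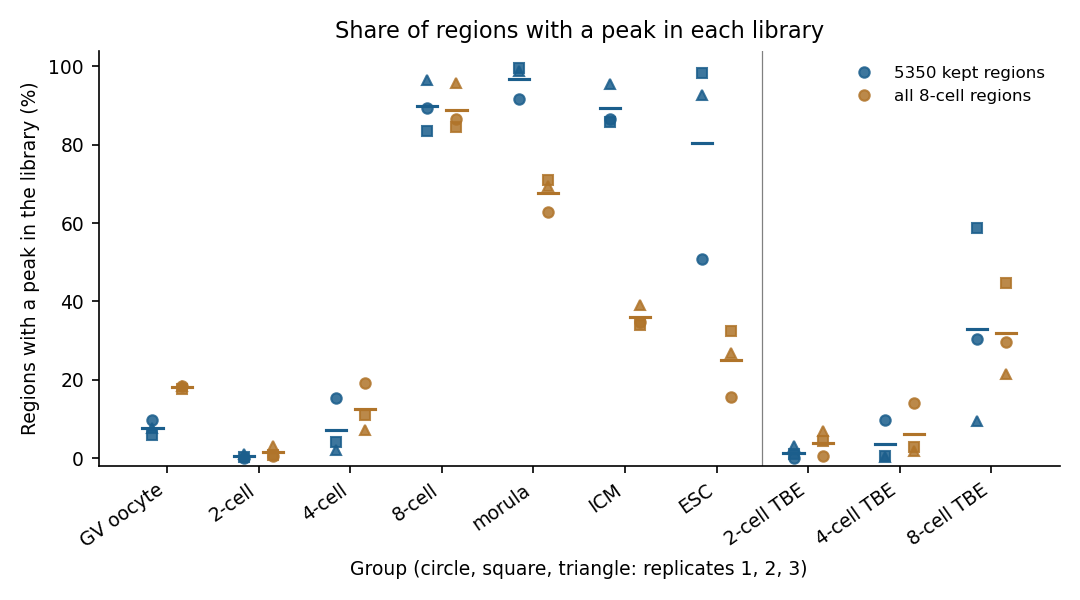
Percentage of regions with a peak (vertical axis) in each of the 30 libraries, for the 5350 kept regions and for all 120364 8-cell regions; short lines are means of 3 libraries. Kept regions were covered in 50.7% to 99.6% by libraries of 8-cell embryos and later stages and in at most 15.3% by libraries of earlier control stages.

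Absence before the 8-cell stage was not complete. Only a region supported by 2 replicates counted as present, and 1932 kept regions (36.1%) had a peak in at least 1 of the 9 control libraries before the 8-cell stage. This compares with 13.1% of all new 8-cell regions and 29.8% of all 8-cell regions, of which the latter include those with an earlier region. GV oocytes accounted for 1199 of the kept regions, 4-cell embryos for 1129 and 2-cell embryos for 68, which is 22.4%, 21.1% and 1.27% beside 7.28%, 7.59% and 0.656% of new 8-cell regions. Single GV oocyte libraries had a peak in 9.68%, 5.76% and 7.59% of kept regions. In 2-cell libraries the shares were 0.0748%, 0.168% and 1.03%, and 4-cell libraries had 15.3%, 4.11% and 2.00%. Over all 8-cell regions GV oocyte libraries had 18.3%, 17.7% and 18.4%, 2-cell libraries 0.555%, 0.678% and 3.03% and 4-cell libraries 19.3%, 11.1% and 7.05%. The highest 4-cell value was that of replicate 1, which had the longest 4-cell list with 42012 peaks, against 22983 and 14355. Among new 8-cell regions found at no later stage, 5.57% had a peak in any of these 9 libraries, in morula-only regions 9.44%, and in regions kept to ICM but not ESC 18.3%. Among these classes and kept regions, a peak in an early library was the more frequent the longer a new region was kept. The 6130 new regions with other orders of later stages fall outside this series and had 23.3%. Of kept regions, 3418 had no early peak.

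Fold enrichment of kept regions was highest in morula. The median over peaks of a library was 4.15, 4.08 and 4.58 in 8-cell embryos, 5.06, 5.75 and 5.49 in morula, 4.74, 4.41 and 4.71 in ICM and 4.43, 5.16 and 4.34 in ESC. Each morula library thus exceeded each 8-cell and ICM library, while ESC replicate 2 lay within the range of morula. Over all 8-cell regions with a peak, medians in morula were lower, at 4.79, 4.87 and 4.86, and those in 8-cell embryos nearly the same, at 4.03, 4.06 and 4.39. In ICM they were 4.74, 4.35 and 4.54. In ESC they were 4.57, 4.65 and 4.48, which is above kept regions in replicates 1 and 3 and below them in replicate 2. Fold enrichment also moves with depth, and the lists carry no scale shared between libraries.

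Taking the mean over the libraries with a peak, 2836 kept regions (53.0%) had their highest fold enrichment in morula, 1277 (23.9%) in ESC, 747 (14.0%) in ICM and 490 (9.16%) at the 8-cell stage. Among the 33476 8-cell regions of any kind with a peak in each of these stages the shares were 54.0%, 21.1%, 14.0% and 10.9%. Morula exceeded the 8-cell stage in 4481 kept regions (83.8%), with a median ratio of 1.26. The same was true of 63.8% of the 94597 8-cell regions that had a peak in any morula library. Each peak was also ranked by its fold enrichment within its own list. By that rank the median kept region stood at the percentile 59.1 in 8-cell embryos, 72.6 in morula, 61.3 in ICM and 61.4 in ESC. Morula held the highest rank in 38.1% of kept regions, a share with none over all 8-cell regions to set beside it, so nothing particular to kept regions is read from it. Such ranks move with the length of a list, since added weak peaks raise those above them, and the lists held 125253 to 156569 peaks in 8-cell embryos, 142231 to 207459 in morula, 84773 to 116791 in ICM and 39333 to 142643 in ESC. Whether morula would be highest on a shared scale was not tested. The 15156 regions kept to ICM but not ESC had similar medians up to ICM, with 4.31 in 8-cell embryos, 5.28 in morula and 4.36 in ICM.

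**Figure D3:**
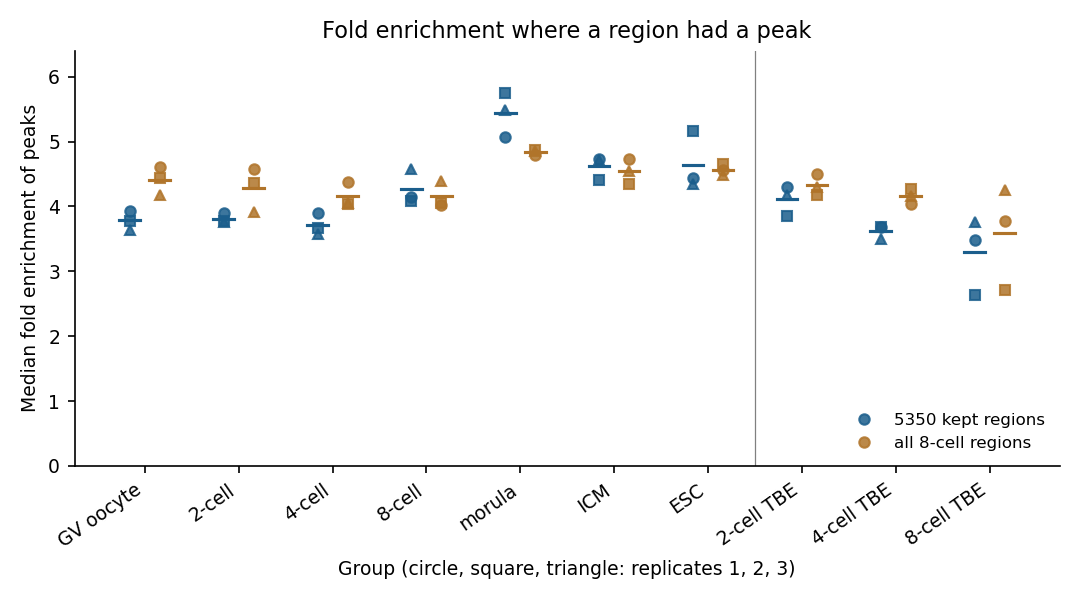
Median fold enrichment (vertical axis) over those regions with a peak in a library, for kept regions and for all 8-cell regions; short lines are means of 3 libraries. Kept regions reached 5.06 to 5.75 in the 3 morula libraries and 4.08 to 4.58 in the 3 8-cell libraries.

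Later regions did not always cover the same bases. The median kept region was covered to 98.1% by morula regions, to 85.2% by ICM regions and to 74.2% by ESC regions, beside 93.1%, 80.1% and 73.5% for all 8-cell regions that overlapped the stage. Covered to at least 50% were 87.2%, 73.9% and 65.7% of kept regions, and 42.1%, 22.9% and 20.2% lay wholly inside later regions of these stages. No shares over all 8-cell regions stand beside these, so they are a description only. Kept regions had a median width of 624 bp, with 277 bp to 1576 bp between the 10th and the 90th percentile. The median width was 657 bp over all 8-cell regions, 687 bp for regions kept to ICM but not ESC and 469 bp for those found at no later stage. The ESC regions that overlapped kept regions had a median width of 456 bp, those of ICM 516.5 bp and those of morula 706 bp.

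Peaks of TBE in kept regions were partly set by the rule, which removed regions with a peak in all 3 8-cell TBE libraries. Of all 8-cell regions 81.0% passed that clause, and of the 7441 regions before it 5350 did. Among kept regions 1828 (34.2%) had no peak in any 8-cell TBE library, 1771 had a peak in 1 and 1751 in 2. Of all 8-cell regions 52.7% had none, 17.7% a peak in 1 and 10.6% in 2, and of the new 8-cell regions 64.4% had none. The 8-cell TBE libraries held a peak in 30.5%, 58.6% and 9.42% of kept regions, beside 29.7%, 44.7% and 21.5% of all 8-cell regions. Replicate 2, with 58.6%, had the longest list of all, with 247513 peaks, and the highest background level, 3.82 against 1.24 and 0.347 in the other TBE replicates and 0.806 to 1.32 in 8-cell controls. Of the 1771 with a peak in 1 library, 1465 had it in replicate 2, and 1333 of the 1751 with peaks in 2 had them in replicates 1 and 2.

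A peak in all 3 control and in 0 TBE libraries of the 8-cell stage was found for 1242 kept regions (23.2%), below the 32.3% of all 8-cell regions. Since both groups took part in the choice, nothing is read from this difference. Where kept regions had a TBE peak, its median fold enrichment was 3.49, 2.64 and 3.76 in the 3 libraries, under the control medians of 4.15, 4.08 and 4.58. These TBE values are partly set by the rule. Over all 8-cell regions the medians were 3.78, 2.72 and 4.26 in TBE and 4.03, 4.06 and 4.39 in control, and there TBE replicate 3 lay above 2 of the 3 controls. TBE peaks covered 62.2%, 71.2% and 56.5% of the median kept region they touched, and control peaks 87.1%, 79.3% and 91.1%, beside 68.7%, 74.3% and 50.3% and 87.8%, 79.7% and 89.7% over all 8-cell regions.

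Kept regions with more TBE peaks also had more early peaks. A peak in any of the 9 early control libraries was found for 18.7% of the kept regions with no 8-cell TBE peak, 35.1% of those with a peak in 1 and 55.3% of those with peaks in 2 TBE libraries. For the 2091 regions removed by the clause it was 68.9%. This split uses lists of the rule, and no such shares over all 8-cell regions stand beside it. Nothing particular to kept regions is read from it. Of 8-cell regions that overlapped an earlier region, 71.5% had a peak in all 3 8-cell TBE libraries and 3.99% in none. Over all 8-cell regions it was 19.0% and 52.7%. Widths of 626, 621 and 625 bp and 8-cell fold enrichments of 4.27, 4.23 and 4.29 were nearly the same in the 3 groups of kept regions. Their median distance from the nearest earlier region was 31.2 kb, 27.6 kb and 19.1 kb, and 16.01 kb for the 2091. Just inside the clause, kept regions with peaks in 2 TBE libraries had a median TBE fold enrichment of 3.18, and just outside it regions with peaks in 3 had 3.85, with 4.29 and 4.41 in control 8-cell embryos. At the limit for ESC, the 2799 kept regions with peaks in 2 ESC libraries had a median ESC fold enrichment of 4.25, and 2886 regions that met every other condition but had a peak in 1 ESC library had 3.66.

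At earlier stages, TBE lists were not part of the rule. A peak in at least 1 of the 3 4-cell TBE libraries was found for 551 kept regions (10.3%), beside 14.6% of all 8-cell regions and 4.21% of new 8-cell regions. The single libraries held a peak in 9.79%, 0.393% and 0.243% of kept regions, beside 13.98%, 2.72% and 1.76% of all 8-cell regions. The first of them had 32260 peaks, the others 4166 and 3094. In 2-cell TBE the shares were 0.0374%, 1.10% and 3.07%, beside 0.614%, 4.27% and 6.79%.

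To compare groups on libraries that had no part in the choice, each replicate number was held out in turn, regions of every control stage were made from peaks common to the other 2 replicates, and 8-cell regions with no earlier region and with regions in morula, ICM and ESC were taken as candidates. No TBE list was used. This gave 6723, 3426 and 2837 candidate regions with replicate 1, 2 and 3 held out. Among control 8-cell libraries so held out, 91.9%, 87.1% and 97.2% of candidates had a peak, and among 4-cell libraries 39.8%, 15.3% and 7.47%. The means of 92.1% ± 5.07 and 20.9% ± 16.9 differed by 71.2 percentage points (SD, n = 3 libraries each). A two-sided exact permutation test gave p = 0.1, the lowest value that 3 libraries against 3 can reach, since no 8-cell library overlapped a 4-cell library. The 4-cell lists, of 14355 to 42012 peaks, were shorter than the 8-cell lists, of 125253 to 156569. On lists cut to an equal number of their strongest peaks 89.9% and 35.2% of candidates had a peak, and the difference was 54.7 points. That cut left only 184, 128 and 91 candidates. Candidates were chosen for this contrast in the other replicates, so the comparison shows only that it recurred in libraries left out. It recurred in other classes of new 8-cell regions too. The means were 91.2% and 6.66% for candidates kept to ICM but not ESC, and 89.3% and 2.79% for morula-only candidates. For those with no later region they were 75.2% and 1.56%. The held-out 4-cell libraries thus had a peak in part of the kept candidates, the highest 4-cell share of these classes. Held-out GV oocyte libraries had a peak in 28.5% ± 4.21 of candidates, 2-cell libraries in 0.908% ± 1.08, morula in 98.1% ± 2.82, ICM in 91.4% ± 5.02 and ESC in 81.0% ± 24.3 (SD, n = 3), of which ESC replicate 1 had 53.2%. By the study's methods 2-cell, 4-cell and 8-cell embryos were split into control and TBE groups that were in culture together. The labels number the replicates but do not say whether a number marks 1 collection of embryos. Candidates differ from number to number, and within a number both groups of a comparison were read on the same candidates. Each control library also helped to choose the candidates of the other numbers. The exact permutation test takes no account of this, so its p-values mix the spread between libraries with that between sets of candidates. Regions along a genome are not independent of each other and were not used as replicates.

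In 8-cell TBE the candidates lacked a peak in 38.6%, 21.9% and 56.0%, and in held-out 8-cell controls in 8.08%, 12.9% and 2.78%. Every TBE library lay above every control library. The means were 38.8% ± 17.05 and 7.93% ± 5.07, a difference of 30.9 percentage points (SD, n = 3 libraries each; p = 0.1 in the exact permutation test, its lowest value). Without replicate 3 the difference was 19.7 points. It was 47.1 points where only peaks of fold enrichment 3 or more were used (55.8% and 8.69%). That cut removed most peaks of TBE replicate 2. The median fold enrichment of its list was 2.49, against 3.81 to 4.05 in 8-cell control lists. The part of this in the larger difference was not tested. On lists cut to an equal number of their strongest peaks the difference was 57.7 points (67.8% and 10.1%). The candidates were chosen anew on the cut lists, and only 184, 128 and 91 were left. With the full lists 61.2% of candidates on average had a peak in an 8-cell TBE library, with 44.0% in the lowest and 78.1% in the highest. Many candidates also had a peak in the held-out early libraries, and without those, 3279, 2194 and 1929 were left. Of these, TBE libraries lacked 50.5% on average and controls 9.78% (p = 0.1 in the exact permutation test), a choice made after the data had been seen.

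At the 4-cell stage 21.7%, 1.49% and 0.634% of candidates had a peak in TBE and 39.8%, 15.3% and 7.47% in held-out control. TBE minus control was −18.1, −13.8 and −6.84 points within the numbers 1, 2 and 3, but the groups overlapped. The means were 7.95% ± 11.9 and 20.9% ± 16.9, a difference of −12.9 points (SD, n = 3 libraries each, p = 0.4 in the exact permutation test). That test takes no account of a shared collection, nor of the candidate regions, which differ from number to number. Numbers of peaks moved along with these shares, between 3094 and 32260 in TBE lists and between 14355 and 42012 in control lists, and their part was not tested. The difference was −4.75 points with no library held out. On lists cut to at most 14355 peaks, still of unequal length, it was −20.9 points. In 2-cell TBE 3.61% ± 3.53 of candidates had a peak and in 2-cell control 0.908% ± 1.08 (SD, n = 3), with 925 to 11083 and 1002 to 6440 peaks in the lists.

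**Figure D4:**
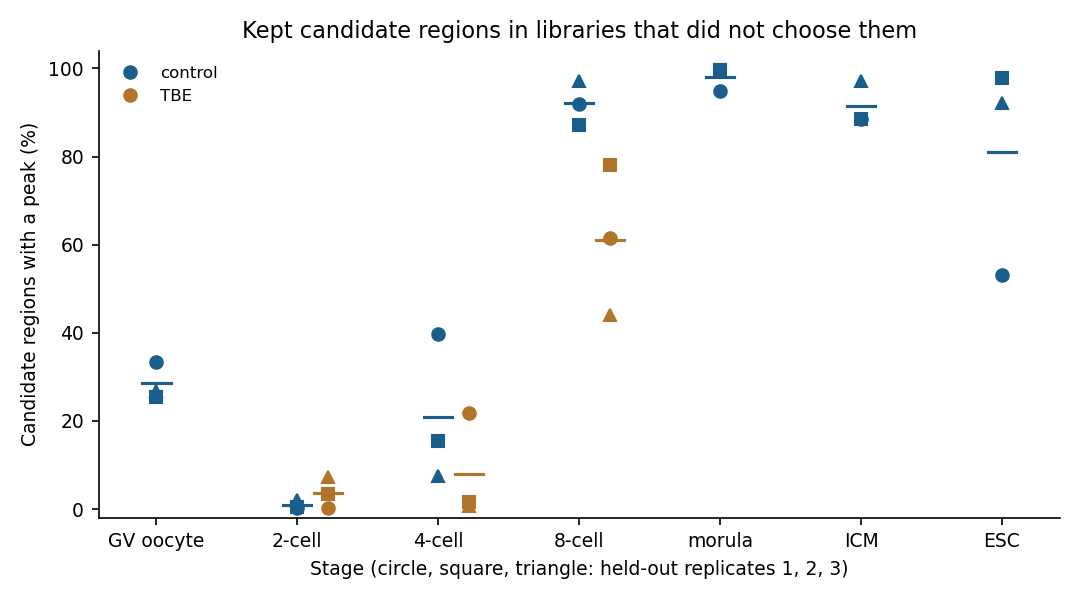
Percentage of kept candidate regions with a peak (vertical axis) in the library that was held out, for each control stage and for TBE of the same stage; short lines are means of 3 libraries. At the 8-cell stage TBE libraries ranged from 44.0% to 78.1% and controls from 87.1% to 97.2%.

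Kept candidates were compared with 8-cell-only candidates, which overlapped no region of any other control stage. The question was whether the regions that persist were missing less often in TBE than those that do not, beyond what a held-out control shows. In the TBE libraries 92.9%, 73.5% and 93.7% of 8-cell-only candidates lacked a peak, and in held-out controls 32.0%, 30.4% and 12.0%. Within a library, 8-cell-only candidates were missing more often than kept candidates by 54.4, 51.6 and 37.7 percentage points in TBE and by 24.0, 17.5 and 9.20 points in control. The mean extra loss was 47.9 ± 8.93 points in TBE and 16.9 ± 7.40 points in control, a difference of 31.0 points with no overlap of the libraries (SD, n = 3 libraries each; p = 0.1 in the exact permutation test, its lowest value). Kept regions were thus missing less often in TBE than 8-cell-only regions, by more percentage points than in control. The comparison with control depends on the scale, as 2 scales added after the data had been seen show. As a percentage of the loss of 8-cell-only candidates, the extra loss was 56.3% ± 15.1 in TBE and 69.7% ± 10.6 in control, so that the order was reversed and the libraries overlapped (SD, n = 3 libraries each; p = 0.3, exact permutation test). As a difference of log odds it was 2.60 ± 0.393 in TBE and 1.44 ± 0.318 in control, with no overlap (SD, n = 3 libraries each; p = 0.1, exact permutation test). Where a shared region had to be covered to at least 50%, the extra loss was 46.8 points in TBE and 29.7 in control, and the libraries overlapped (p = 0.3, exact permutation test). On lists cut to an equal number of strongest peaks the difference was 10.1 points, with 91 to 184 kept candidates in a fold. Within 10 bins of fold enrichment, an alternative added after the data had been seen, it was 39.5 points.

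Classes between these ends were ordered in the same way in TBE. Candidates kept to ICM but not ESC lacked a peak in 68.6% on average and morula-only candidates in 81.9%, between 38.8% of kept and 86.7% of 8-cell-only candidates. Held-out controls lacked 8.85% and 10.7% of the middle classes, close to the 7.93% of kept and below the 24.8% of 8-cell-only candidates. Held-out GV oocyte libraries had the same order as TBE, with a peak in 28.5% of kept candidates, 9.75% of those kept to ICM, 3.83% of morula-only and 1.99% of 8-cell-only candidates. They thus lacked a peak in 71.5%, 90.2%, 96.2% and 98.0% of these classes. These steps between classes were not tested. What part traces of earlier accessibility have in the smaller loss was tested only by leaving out candidates with a peak in the held-out early libraries. Candidates that were left may still have a peak in single early libraries that took part in the choice, so such traces were not all removed. With that count the difference in extra loss was 22.7 points (p = 0.1, exact permutation test).

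**Figure D5:**
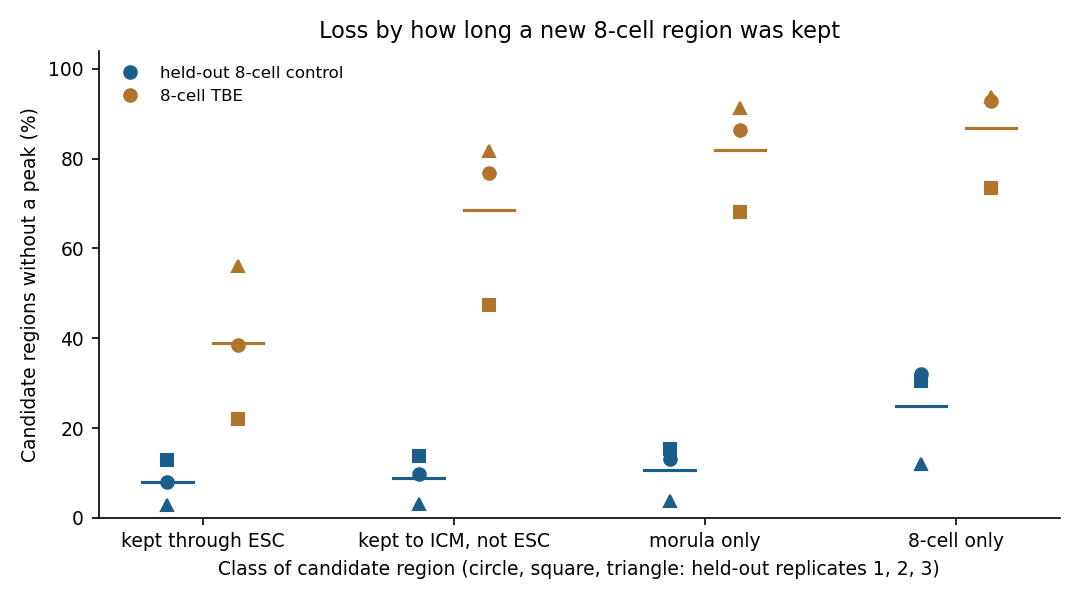
Percentage of candidate regions without a peak (vertical axis) in held-out 8-cell control libraries and in 8-cell TBE libraries, for 4 classes of new 8-cell regions by how long they were kept; short lines are means of 3 libraries. Mean loss in TBE was 38.8% for regions kept through ESC and 86.7% for 8-cell-only regions, and control libraries stayed between 2.78% and 32.0% throughout.

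Kept regions were spread over the genome. All 29 autosomes and the X chromosome held some, from 314 on chromosomes 3 and 7 to 73 on chromosome 27, and 17 lay on unplaced scaffolds. Their share among 8-cell regions was highest on chromosomes 28 (6.32%), 22 (5.99%) and 7 (5.93%), and lowest on chromosomes 19 (3.13%) and 25 (3.48%), against 4.44% of all 8-cell regions. Chromosomes 18, 19 and 25 had large shares of 8-cell regions that overlapped an earlier region, at 33.3%, 30.4% and 29.0% against 19.3% over the genome. Of the new regions alone, 5.72%, 4.50% and 4.90% were kept regions there, 7.84%, 7.70% and 7.55% on chromosomes 28, 22 and 7, and 4.90% on the X chromosome, beside 5.51% over the genome. On chromosome 6 the smallest share overlapped an earlier region, 12.3%, and yet only 3.85% of its 8-cell regions were kept regions. Of its new regions 4.40% were, the lowest value of any chromosome. These shares are a description, and no test of chromosomes was made.

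The median distance to the nearest other kept region was 129.6 kb, and 4.86% had another within 10 kb. The 6130 regions with other orders of later stages, a class of similar size, had 126.1 kb and 5.56%. Other 8-cell regions were near, at a median distance of 7.03 kb from a kept region, and 63.7% of kept regions had an 8-cell region of any kind within 10 kb, beside 69.4% of all 8-cell regions. From the nearest region of an earlier stage kept regions were a median of 25.7 kb away, those kept to ICM but not ESC 20.9 kb, morula-only regions 28.1 kb and regions of no later stage 31.9 kb. Of 2949 windows of 1 Mb with an 8-cell region, 2112 held a kept region, 677 of them a single one and 222 at least 5. The fullest window, from 53000001 to 54000000 on chromosome 17, held 13 kept regions among 84 8-cell regions. It was followed by chromosome 15 from 45000001 to 46000000, with 11 among 55, and by windows with 10 on chromosome 7 from 62000001 to 63000000 and on chromosome 9 from 72000001 to 73000000, which were all chosen after their counts had been seen. Without a peak in any 8-cell TBE library were 3 of 13, 5 of 11, 6 of 10 and 1 of 10 kept regions in these windows, beside 34.2% of all kept regions and 52.7% of all 8-cell regions.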

How the data were processed

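Peak lists of 30 ATAC-seq libraries were used. The authors trimmed reads with Trim Galore and cutadapt, mapped them with BWA 0.7.17 to ARS-UCD1.2, removed duplicates with PicardTools, filtered with SAMtools 1.7 and called broad peaks per replicate with MACS2 2.1.1 (versions from the submitters' processing notes). The fold enrichment of a peak is a ratio of pileup to local background, with a constant added to each, computed by the authors with MACS2. Both −log10 p and −log10 q were deposited by the authors as means over a peak.

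From these lists, regions, overlaps of at least 1 bp, widths and distances were computed with Python 3.11.15, numpy 2.4.6 and scipy 1.17.1, and figures with matplotlib 3.10.9. Interval functions and tests were tested on simulated data. Numbers of reads were not used here. In their place a background level was solved for 28 of 30 lists as the most frequent expected pileup among peaks whose values match a whole-number pileup, within 0.0002 on −log10 p. Values of a region in a library are those of its strongest peak.

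The members and lists were chosen with earlier results of these data known. Means of 3 libraries against 3 were set against all 20 arrangements of the 6 libraries (exact permutation test, two-sided). Named regions had the largest mean fold enrichment over 12 libraries, with no peak elsewhere, on placed chromosomes, at most 1 per 1 Mb. Genes, markers and motifs were not analysed here.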

Additional observations from a re-analysis of the deposited data

How the results depend on the processing

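Stricter peaks, a required overlap of 50% and autosomes alone kept the number of kept regions within 1.5 times of the main count. It was 130 where each list held at most its 14355 strongest peaks, 11260 where 1 replicate made a region, 1734 where all 3 had to, and 1828 where no 8-cell TBE library might have a peak. With a replicate number left out at every stage and both others required it lay between 1236 and 3755, and these counts do not separate the libraries left out from the requirement. Chosen after the data had been seen, counts without the longest 4-cell list (5558), the shortest ESC list (5029) and the longest 8-cell TBE list (5271) were close to it.

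The 4 comparisons of held-out libraries kept their direction under 42 of 43 alternatives. These include a replicate block for each comparison, whose value is the main one by construction, so its direction could not change. Those with a replicate left out drop that number's values from the main comparison. The difference had the same sign within every number, so their direction could not change either. Those with no library held out used control libraries that had a part in the choice. The extra loss of 8-cell-only regions was reversed, at −13.4, when taken as a percentage of their loss, a scale added after the data had been seen. Groups that did not overlap came to overlap once more for this result, which was 17.03 points with an overlap of 50% required. The cause of either was not tested. The difference between 4-cell TBE and control, in which the groups overlapped, was −15.95 to −10.34 points with a replicate left out, and without replicate 1 they did not overlap. It was −4.75 points with no library held out and −20.9 points on lists cut to at most 14355 peaks, which left 4-cell TBE replicates 2 and 3 shorter, with 4166 and 3094, so that list length was not made equal.

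Embryos were split between control and TBE and were in culture together, but the labels do not tie a number to a collection. Same-numbered libraries of control and TBE did not deviate together at the 8-cell stage (correlations of 0.0215, −0.0338 and 0.0201). At the 4-cell stage 1 of 3 correlations was low (0.338, 0.0421 and 0.285). Between unlike numbers they were −0.336 to 0.238 there, so numbers 1 and 3 deviated together more than any unlike numbers. In the main tests the numbers were not taken as pairs. With a replicate block, an exact sign-flip permutation test that cannot go below p = 0.25, the difference of −12.9 points at the 4-cell stage had the same sign in all 3 pairs (p = 0.25), and the other comparisons had p = 0.25 too. The number of libraries limits all of these tests.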
